A study of Mus musculus with 8 samples.

Results

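Apolipoproteins are the protein part of lipoproteins, the particles that carry cholesterol and triglyceride in blood. Here 10 mouse apolipoprotein genes (Apoa1, Apoa2, Apoa4, Apob, Apoc1, Apoc2, Apoc3, Apoe, Apoh and Apom) were read on every array of the series. They were taken by symbol: all probe sets (groups of array probes summarised to a single value) annotated to one of these symbols and to no other gene. They are 10 of the 18193 genes that had such a probe set, and 17 of 45101 probe sets. Of the 10 genes, 5 had 1 probe set and 5 had several, with 4 for Apoa1.

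RNA came from the posterior palate of BALB/c pups at P1, the first postnatal day. Their dams had carried a subcutaneous osmotic minipump, which releases fluid at a steady rate, during pregnancy. The 4 groups were saline, nicotine 1.5 mg/kg/day, nicotine 3.0 mg/kg/day and nicotine 4.5 mg/kg/day. Each group had 2 arrays, called biological replicates in the labels, and all animals share strain, age and pump surgery. Eif2s3y, a Y-linked gene, had intensities of 301 on saline replicate 1 and 236 on nicotine 3.0 replicate 1, against 1.72 to 6.86 on the other 6 arrays, so the 2 saline arrays differed in sex, and the part of sex in the results was not tested. The extraction protocol gives 2 pups without saying whether this is per array or per group, and nothing in the labels says how many litters were used. The p-values therefore describe the spread between these samples, which may be technical. Values are intensities (probe set brightness on a linear scale, as deposited), and the number of arrays limits their precision.

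Apob is the structural protein of chylomicrons, made by enterocytes, and of very-low-density lipoproteins, made by hepatocytes. Apoa1 and Apoa2 are the main proteins of high-density lipoprotein, Apoa4 rides on chylomicrons, and the small C apolipoproteins move between particles, where Apoc2 activates and Apoc3 inhibits lipoprotein lipase. Most of these genes are transcribed in liver, intestine or both, under nuclear receptors such as HNF4A, whereas Apoe, a ligand of the low-density lipoprotein receptor, is also made by macrophages, astrocytes and many other cells. In the mouse, Apoa1, Apoc3, Apoa4 and Apoa5 are neighbours on chromosome 9, and Apoe, Apoc1, Apoc4 and Apoc2 are neighbours on chromosome 7. Apoa2 lies on chromosome 1, Apoh on 11, Apob on 12 and Apom on 17, by the RefSeq annotation of GRCm38.p6.

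The start regions of 4 of the genes are shown. They are those of Apoa4 and Apob, which fell with nicotine, Apoh, which was called at no dose and followed the liver markers array by array, and Apoe, the gene they are compared with. Each is a RefSeq window of GRCm38.p6 that runs from 250 bases before to 50 bases after a listed start and is written 5′ to 3′ on the gene's strand. Capitals mark matches, on either strand, to CAAAGNNCA, an HNF4-type sequence, or to TATAAA, the TATA box. The windows are chr9:46240594-46240893 (plus strand) for Apoa4, chr12:7977427-7977726 (plus strand) for Apob, chr11:108395047-108395346 (plus strand) for Apoh and chr7:19699139-19699438 (minus strand) for the first of 3 listed starts of Apoe.
Apoa4: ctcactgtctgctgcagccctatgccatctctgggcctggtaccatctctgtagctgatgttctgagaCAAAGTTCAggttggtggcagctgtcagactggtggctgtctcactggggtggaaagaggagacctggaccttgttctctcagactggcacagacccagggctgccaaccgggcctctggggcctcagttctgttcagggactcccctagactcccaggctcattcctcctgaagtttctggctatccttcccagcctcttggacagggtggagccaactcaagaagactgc
Apob: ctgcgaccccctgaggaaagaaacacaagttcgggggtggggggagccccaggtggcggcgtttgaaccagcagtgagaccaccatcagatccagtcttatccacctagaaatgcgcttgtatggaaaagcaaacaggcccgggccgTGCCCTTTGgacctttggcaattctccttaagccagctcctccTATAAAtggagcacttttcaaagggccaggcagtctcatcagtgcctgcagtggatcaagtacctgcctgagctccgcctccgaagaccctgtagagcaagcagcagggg
Apoh: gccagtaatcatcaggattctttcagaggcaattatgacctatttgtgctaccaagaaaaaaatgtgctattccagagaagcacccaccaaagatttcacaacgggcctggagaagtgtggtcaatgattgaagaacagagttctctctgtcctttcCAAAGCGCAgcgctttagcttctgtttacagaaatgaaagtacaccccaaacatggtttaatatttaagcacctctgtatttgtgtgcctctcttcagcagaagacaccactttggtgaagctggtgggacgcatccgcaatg
Apoe: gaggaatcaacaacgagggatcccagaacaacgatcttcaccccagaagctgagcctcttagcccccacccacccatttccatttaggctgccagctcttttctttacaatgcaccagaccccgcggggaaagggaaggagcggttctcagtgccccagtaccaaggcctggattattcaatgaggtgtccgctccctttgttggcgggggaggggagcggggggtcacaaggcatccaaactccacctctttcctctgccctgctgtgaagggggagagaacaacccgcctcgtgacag

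Windows were matched for 8 of the 10 genes, 11 windows in all, with none for Apoc1 and Apoc3. CAAAGNNCA was present in the windows of Apoa4 (first base at -182 from the start), Apob (-103, on the opposite strand) and Apoh (-93), 3 of the 11 windows, and in 6.36% of all 32841 windows of the same length. The fully specified CAAAGTCCA was in none of the 11 and in 0.475% of all windows. AGGTCA, the hexamer bound by nuclear receptors, was in 3 windows (of Apoa2, Apoc2 and Apoh) and in 16.3% of all. TGTTTAC, a FOXA-type sequence, was in 3 windows (of Apoa2, Apoe and Apoh) and in 3.65% of all, and GTTAAT, part of the site of HNF1, in 2 (of Apoc2 and Apoe) and in 7.1% of all. TATAAA was in 3 windows (of Apoa2, Apob and Apoe) and in 13.6% of all. The matches of Apoe lay in windows other than the one printed. The 6 motifs were searched on both strands, every CAAAGTCCA is also a CAAAGNNCA, and a match describes letters only.

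The arrays did not all hold the same mix of tissues. Of 13 palate mesenchyme genes, 5 to 7 per array lay above a log2 level of 5.74, the 60th percentile over all probe sets. Prrx1, Meox2 and Osr1 were above it on all 8 arrays, and Tbx22, Pax9, Barx1, Alx4 and Dlx5 were above it on none. Liver markers stood out on saline replicates 1 and 2 and on nicotine 1.5 replicate 2, where 19, 20 and 20 of 21 lay above that level, against 1 to 3 on the other 5 arrays. Intestine markers stood out on both saline arrays, with 19 and 18 of 20 above it, against 8 and 5 at 1.5 mg/kg/day and 3 on each array at the higher doses. Stomach markers had median log2 levels of 4.61 to 4.83 on the nicotine arrays, against 7.86 and 8.05 on the saline arrays. Kidney markers had 4.50 to 4.60 on the nicotine arrays, against 5.24 and 8.71 on saline replicates 1 and 2. The ratio of the 3′ to the 5′ actin control, a sign of RNA quality, was 0.954 to 1.39 on the nicotine arrays, against 1.74 and 1.65 on the saline arrays. Other lists were higher on most nicotine arrays. Lung markers had medians of 4.65 to 9.38 on the nicotine arrays, against 4.73 and 4.85 on the saline arrays, and adipocyte markers 7.91 to 9.42 on the nicotine arrays, against 7.80 and 5.84 on the saline arrays. These values move with the results below, and their part in them was not tested. In bulk tissue, fewer cells of a type and less RNA per cell cannot be told apart.

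Of the 10 apolipoprotein genes, 5 fell with nicotine in the mean of the 3 doses: Apoa1, Apoa4, Apob, Apoc2 and Apoc3. The test was limma with Benjamini-Hochberg adjustment over all 13586 genes tested, called at an adjusted p under 0.05. None rose, and 5.4% of all genes were called lower in this comparison. The median log2 change of the 10 was -4.70, against 0.07 over all genes tested. All of the 10 passed the filter on low levels (a mean log2 level of 4.94), some of them only through the arrays where they were high. In the same 5 genes, all 6 nicotine arrays lay below both saline arrays, as did 12.6% of all genes tested. Without the 2 arrays highest in liver markers, saline replicate 2 and nicotine 1.5 replicate 2, those groups were 1 array each. The changes of the 5 were then -6.88 for Apoa4, -6.13 for Apoa1, -5.15 for Apoc2, -5.03 for Apoc3 and -4.35 for Apob. Without saline replicate 2 alone, Apoa1 and Apob missed the threshold, with changes of -5.41 and -3.92.

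**Figure D1:**
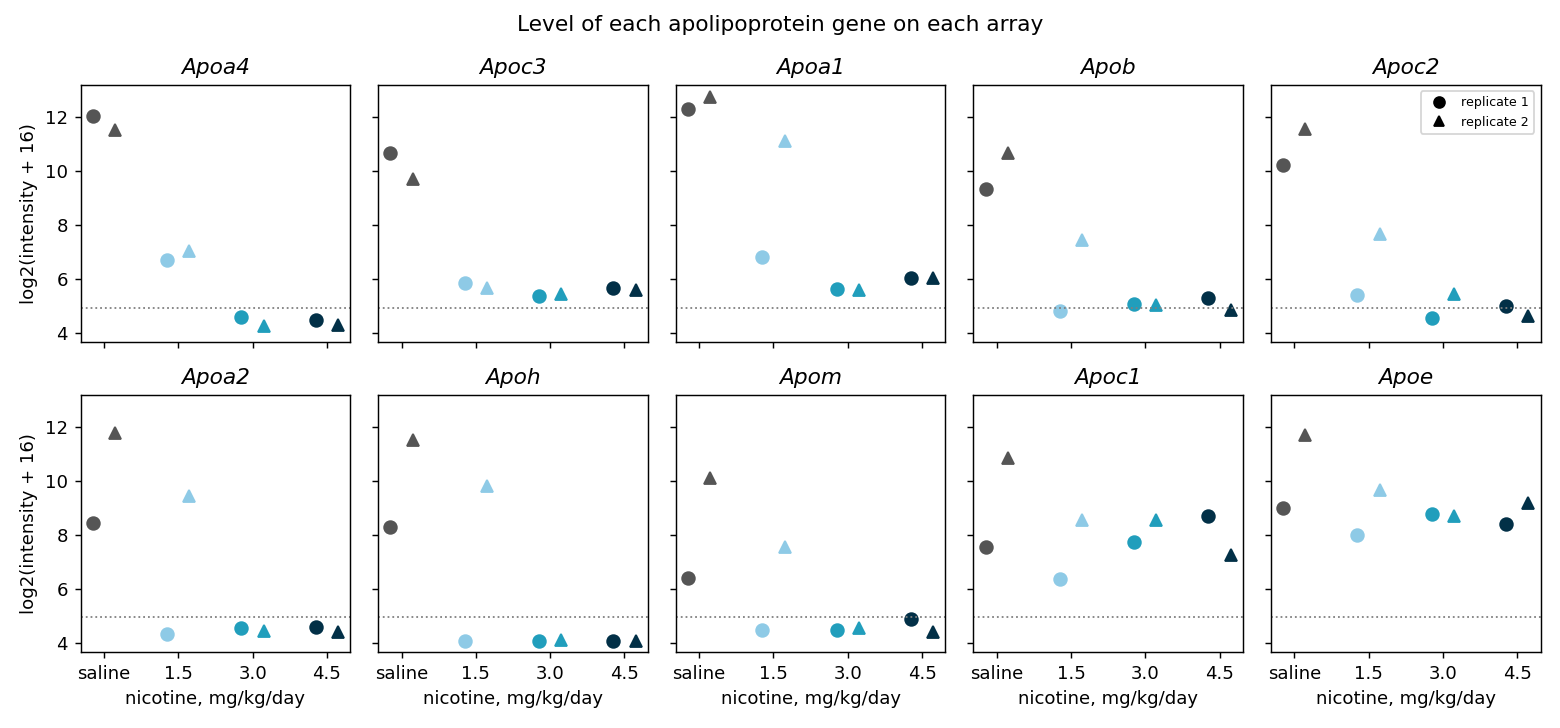
Level of each of the 10 apolipoprotein genes on each array. The vertical axis is log2(intensity + 16) after quantile normalization, the horizontal axis the nicotine dose in mg/kg/day with saline at the left, circles are replicate 1 and triangles replicate 2, and the dotted line is the filter level of 4.94. The saline arrays are highest for the first 5 genes, nicotine 1.5 replicate 2 stands over 1 log2 unit above replicate 1 for 8 of the 10, and Apoa1, Apoc3, Apoc1 and Apoe lie above the line on all 8 arrays.

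Apoa4 and Apoc3, neighbours on chromosome 9, had both saline arrays far above all others and replicate 1 the higher of the pair. Apoa4, the chylomicron protein, had intensities of 4057 and 2762 on the saline arrays, 84.4 and 120.1 at 1.5 mg/kg/day, 8.00 and 3.11 at 3.0 mg/kg/day and 6.29 and 3.83 at 4.5 mg/kg/day. The 4 groups fell into 3 steps that did not overlap: saline, the lowest dose, and the 2 higher doses together. Its log2 change from saline was -4.93 ± 0.25 (SE) at 1.5 mg/kg/day (adjusted p = 0.000377, limma), -7.38 ± 0.25 at 3.0 mg/kg/day (adjusted p = 0.000106) and -7.40 ± 0.25 at 4.5 mg/kg/day (adjusted p = 0.000103). A second probe set of Apoa4 gave -5.64, -7.10 and -7.24 at the 3 doses, low to high.

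Apoc3, the lipoprotein lipase inhibitor, had 1545 and 873 on the saline arrays, 41.0 and 38.7 at 1.5 mg/kg/day, 24.5 and 26.4 at 3.0 mg/kg/day and 32.4 and 30.1 at 4.5 mg/kg/day. All 6 nicotine arrays lay within a narrow band, and the doses did not order by size. The log2 change was -4.43 ± 0.30 (SE) at 1.5 mg/kg/day, -4.78 ± 0.30 at 3.0 mg/kg/day and -4.56 ± 0.30 at 4.5 mg/kg/day, with adjusted p (limma) of 0.00142, 0.000731 and 0.00088. These 2 genes, and Apoc2 below, were called at every dose and kept their calls in the mean of the doses whichever single array was left out. At 1.5 mg/kg/day Apoc3 lost its call (adjusted p = 0.0865) when only that dose and saline were fitted.

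Apoa1, Apob and Apoc2 were also highest on the 2 saline arrays, but saline replicate 2 was above replicate 1 and nicotine 1.5 replicate 2 came next. Apoa1, the main protein of high-density lipoprotein, had 4812 and 6933 on the saline arrays, 91.4 and 2236 at 1.5 mg/kg/day, 32.0 and 31.3 at 3.0 mg/kg/day and 46.6 and 46.5 at 4.5 mg/kg/day. The lowest dose thus held one array near the higher doses and one near saline. Its log2 change was -6.90 ± 1.18 (SE) at 3.0 mg/kg/day (adjusted p = 0.0324, limma) and -6.47 ± 1.18 at 4.5 mg/kg/day (adjusted p = 0.029). At 1.5 mg/kg/day it was -3.56 ± 1.18 and did not pass the test (adjusted p = 0.157). With nicotine 1.5 replicate 2, the high array, left out, adjusted p was 0.00117, but that dose is then 1 array whose spread is assumed to be that of the other groups. The other 3 probe sets of Apoa1 gave changes in the mean of the doses of -6.16, -6.45 and -6.70, against -5.64 for the one used.

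Apob, the structural protein of chylomicrons and very-low-density lipoproteins, had 644 and 1554 on the saline arrays, 12.1 and 163 at 1.5 mg/kg/day, 17.5 and 16.5 at 3.0 mg/kg/day and 21.5 and 12.7 at 4.5 mg/kg/day. The nicotine arrays other than 1.5 replicate 2 lay between 12.1 and 21.5, and the groups did not overlap with saline. The log2 change was -4.94 ± 0.81 (SE) at 3.0 mg/kg/day (adjusted p = 0.0282, limma) and -4.93 ± 0.81 at 4.5 mg/kg/day (adjusted p = 0.0219). At 1.5 mg/kg/day Apob had -3.87 ± 0.81 and missed the threshold (adjusted p = 0.0614). With the mean of its probe sets in place of the brightest it passed (-3.45 ± 0.52, adjusted p = 0.0312, limma), so the call at this dose depended on the setting. A second Apob probe set lay below the filter and was not tested, with 1.0 to 3.01 on the nicotine arrays, against 90.3 and 234 on the saline arrays.

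Apoc2, the cofactor of lipoprotein lipase, had 1177 and 2786 on the saline arrays, 26.7 and 193 at 1.5 mg/kg/day, 7.41 and 26.2 at 3.0 mg/kg/day and 15.1 and 8.75 at 4.5 mg/kg/day. Its nicotine arrays were all far below saline and overlapped each other between doses. The log2 change was -4.35 ± 0.77 (SE) at 1.5 mg/kg/day (adjusted p = 0.0424, limma), -5.90 ± 0.77 at 3.0 mg/kg/day (adjusted p = 0.0126) and -6.07 ± 0.77 at 4.5 mg/kg/day (adjusted p = 0.00945). The call at the lowest dose was lost without saline replicate 2, without nicotine 1.5 replicate 1 and without any array of the higher doses (adjusted p 0.0823 to 0.104). It was also lost with an added constant of 1 (adjusted p = 0.0775), with array weights (0.0839) and with only the 2 groups fitted (0.239).

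In the mean of the 3 doses the changes of these 5 genes were -6.57 ± 0.20 for Apoa4 (adjusted p = 2.94e-05, limma), -4.59 ± 0.25 for Apoc3 (0.000269), -5.44 ± 0.63 for Apoc2 (0.00554), -4.58 ± 0.66 for Apob (0.0118) and -5.64 ± 0.96 for Apoa1 (0.0193), each a log2 change with its SE. Apoa1 missed the threshold without saline replicate 2 (adjusted p = 0.0793), nicotine 3.0 replicate 1 (0.0621) or 2 (0.0647), or nicotine 4.5 replicate 1 (0.055). Apob missed it without saline replicate 2 (0.0555).

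Apoa2, Apoh and Apom had a different order of arrays: saline replicate 2 was highest, then came nicotine 1.5 replicate 2, then saline replicate 1. Apoa2, the second protein of high-density lipoprotein, had 339 and 3250.5 on the saline arrays, 3.77 and 673 at 1.5 mg/kg/day, 7.69 and 5.57 at 3.0 mg/kg/day and 7.65 and 5.14 at 4.5 mg/kg/day. The 2 groups with high arrays overlapped, and the 4 arrays of the higher doses were all below both saline arrays. Its log2 change was -3.22 ± 1.66 (SE), -5.61 ± 1.66 and -5.62 ± 1.66 at the 3 doses, low to high, and none passed the test (adjusted p 0.0846 to 0.32, limma).

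Apoh, beta-2-glycoprotein I, a plasma protein that binds phospholipids, had 311 and 2706 on the saline arrays and 1.0 and 862 at 1.5 mg/kg/day. On the 4 arrays of the higher doses it had 1.0, 1.23, 1.0 and 1.0, and 1.0 is about the lowest value in the deposited data. The added 16 and that floor limit how large a change it can show. Its log2 change in the mean of the doses was -4.86 ± 1.45 (SE, adjusted p = 0.0777, limma), against -4.82 ± 1.36 for Apoa2 (adjusted p = 0.0674). A second Apoh probe set, dimmer throughout, had a change of -2.01.

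Apom, which carries sphingosine-1-phosphate on high-density lipoprotein, had 77.6 and 1119 on the saline arrays, 5.75 and 175 at 1.5 mg/kg/day, 6.27 and 7.67 at 3.0 mg/kg/day and 12.6 and 5.14 at 4.5 mg/kg/day. Saline replicate 1 lay between the 2 arrays of the lowest dose. Its log2 change in the mean of the doses was -3.21 ± 1.08 (SE, adjusted p = 0.101, limma), and the second Apom probe set gave -3.28. Without the 2 arrays highest in liver markers, the changes of Apoa2, Apoh and Apom were -3.99 ± 0.19, -4.21 ± 0.17 and -1.87 ± 0.23 (SE), with adjusted p of 0.000372, 0.000331 and 0.0101. Saline and the lowest dose are then 1 array each, the 2 arrays left out are the highest for these genes, and the spread comes from the higher doses, where they lay near the floor, so these p-values carry no weight.

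Apoe and Apoc1, neighbours on chromosome 7, were above the filter level on all 8 arrays, as were Apoa1 and Apoc3. Apoe, the receptor ligand, had 503 and 3041 on the saline arrays, 222 and 778 at 1.5 mg/kg/day, 444 and 401 at 3.0 mg/kg/day and 321 and 538 at 4.5 mg/kg/day. Saline replicate 2 stood above the rest, and saline replicate 1 lay within the range of the nicotine arrays. The highest array was 13.7 times the lowest. The log2 change was -1.52 ± 0.90 (SE), -1.61 ± 0.90 and -1.56 ± 0.90 at the 3 doses, low to high, with adjusted p (limma) from 0.29 to 0.376. In the mean of the doses it was -1.56 ± 0.74 (adjusted p = 0.201). It was -0.20 without saline replicate 2 (adjusted p = 0.862) and -2.93 without saline replicate 1 (adjusted p = 0.0317), so the choice of saline array decided the value.

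Apoc1, a small apolipoprotein that can hinder the binding of particles to their receptors, had 188 and 1758 on the saline arrays, 63.2 and 357 at 1.5 mg/kg/day, 199 and 357 at 3.0 mg/kg/day and 408 and 128 at 4.5 mg/kg/day. Saline replicate 1 lay below 4 of the 6 nicotine arrays. The log2 change in the mean of the doses was -1.36 ± 0.95 (SE, adjusted p = 0.368, limma), and without saline replicate 2 it was 0.29 (adjusted p = 0.862). Neither Apoe nor Apoc1 passed the test at any dose.

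By dose, the 10 genes gave 3 lower calls at 1.5 mg/kg/day (Apoa4, Apoc2 and Apoc3), where 1.75% of all genes were called lower. At 3.0 mg/kg/day 5 were called lower (2.38% of all genes) and at 4.5 mg/kg/day 5 (3.97% of all genes), the same 5 genes as in the mean of the doses. None was called higher at any dose, where 0.729%, 1.35% and 2.91% of all genes were, low to high. The median log2 changes of the 10 were -3.39, -5.28 and -5.27 at the 3 doses, low to high, against 0.04, 0.06 and 0.06 over all genes tested. The 3 comparisons share the same 2 saline arrays. Both arrays of a dose lay below both saline arrays in 5 of 10 genes at 1.5 mg/kg/day (21.7% of all genes), 9 at 3.0 mg/kg/day (25.5%) and 8 at 4.5 mg/kg/day (24.8%).

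An F test for any difference among the 3 nicotine doses called 0 of 10 genes, and 0% of all genes (limma). At an unadjusted p under 0.05 there was 1 of the 10, and 1068 of all 13586 genes. That gene was Apoa4, with unadjusted p = 3.14e-05 and adjusted p = 0.394, and the next was Apoa1 with unadjusted p = 0.051.

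**Figure D2:**
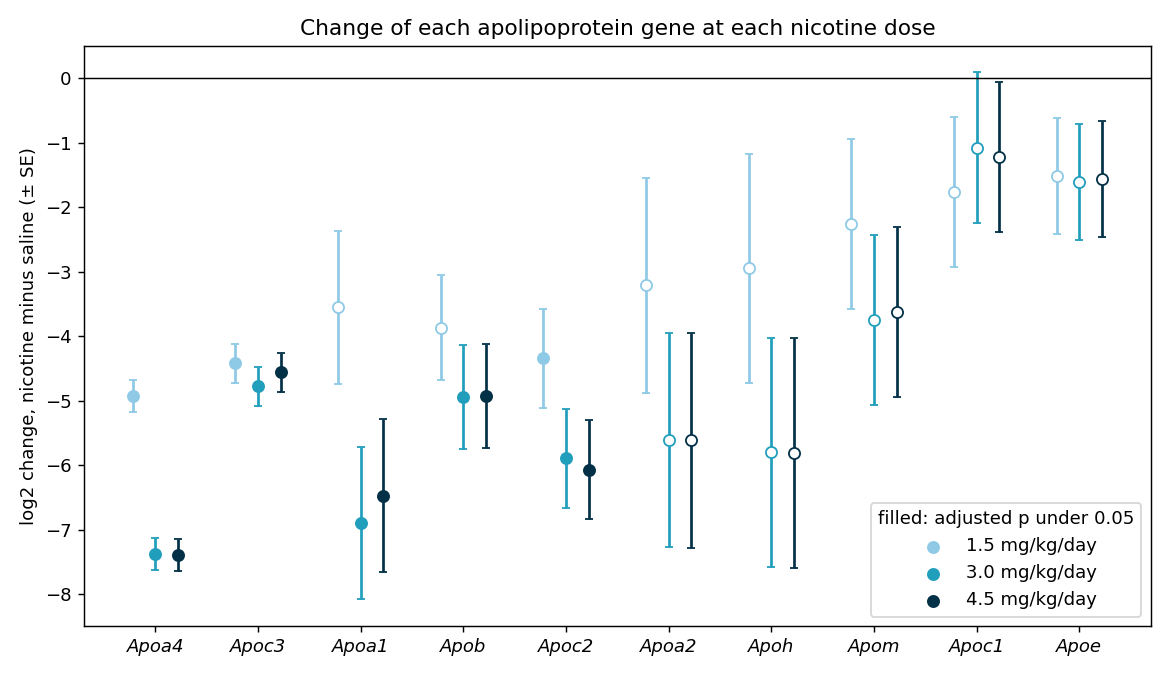
Log2 change of each apolipoprotein gene from saline at nicotine 1.5, 3.0 and 4.5 mg/kg/day. Points are the fitted changes (nicotine minus saline), bars the SE, and filled points have an adjusted p under 0.05. Apoa4 and Apoc3 have the shortest bars. Apoa4, Apoc3 and Apoc2 are filled at every dose, whereas Apoa2, Apoh, Apom, Apoc1 and Apoe are open at every dose.

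The 5 genes that missed the threshold at every dose had wide gaps between replicates. The median gap over all genes tested was 0.30 between the saline arrays and 0.26 between the arrays at 1.5 mg/kg/day, in absolute log2 units. Between the 2 saline arrays, replicate 2 exceeded replicate 1 by 3.72 for Apom, 3.35 for Apoa2, 3.29 for Apoc1, 3.19 for Apoh and 2.73 for Apoe on the log2 scale. Apoa4 and Apoc3 had gaps of -0.51 and -0.94, with replicate 1 the higher. The gap was over 1 in either direction for 7 of the 10 apolipoprotein genes and for 10.4% of all genes tested. At 1.5 mg/kg/day it was over 1 for 8 of 10 (7.62% of all genes), led by 5.73 for Apoh, 5.13 for Apoa2 and 4.31 for Apoa1, with 0.31 for Apoa4 and -0.18 for Apoc3. At 3.0 mg/kg/day it was over 1 for 0 of 10 (1.1% of all genes) and at 4.5 mg/kg/day for 1 (4.03%), Apoc1. Saline replicate 2 was the highest of all arrays for 8 of the 10, and for 16.6% of all genes.

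The order of arrays in each group of apolipoprotein genes can be set beside that of the organ marker lists. The median log2 level of the 21 liver markers was 8.07 and 11.4 on the saline arrays, 4.97 and 9.24 at 1.5 mg/kg/day, 4.79 and 4.82 at 3.0 mg/kg/day and 4.57 and 4.71 at 4.5 mg/kg/day. That is the order of Apoa2, Apoh and Apom: saline replicate 2, nicotine 1.5 replicate 2, saline replicate 1. Albumin (Alb) had log2 levels of 11.8 and 12.8 on the saline arrays, 5.17 and 12.3 at 1.5 mg/kg/day and 5.25 to 5.44 at the higher doses. The summed intensity of the liver list was 15769 and 53713 on the saline arrays, 435 and 24297 at 1.5 mg/kg/day and 315 to 355 at the higher doses.

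The 20 intestine markers had median log2 levels of 9.20 and 8.12 on the saline arrays, 5.10 and 5.06 at 1.5 mg/kg/day and 4.50 to 4.67 at the higher doses. As for Apoa4 and Apoc3, saline replicate 1 was above replicate 2 and the 2 medians at 1.5 mg/kg/day lay close together. Their summed intensity was 18156 and 9258 on the saline arrays, 1264 and 685 at 1.5 mg/kg/day and 339 to 403 at the higher doses. Lactase (Lct) had log2 levels of 4.50 to 4.95 on the nicotine arrays, against 10.04 and 8.51 on the saline arrays.

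Macrophages and astrocytes are known sources of Apoe. The 16 macrophage markers had medians of 7.27 and 7.84 on the saline arrays and 7.17 to 8.34 on the nicotine arrays. The 8 astrocyte and glia markers had 6.88 and 5.49 on the saline arrays and 5.83 to 7.07 on the nicotine arrays. Red blood cell markers, 7 genes, had medians of 5.59 and 8.74 on the saline arrays, 4.92 and 7.38 at 1.5 mg/kg/day and 5.02 to 5.61 at the higher doses. Of the marker lists, theirs was the nearest profile to both Apoe and Apoc1, with mean absolute differences over the 8 arrays of 0.33 and 0.52 log2 units after each was centred on its mean. Slc4a1, Epb42, Rhag and Klf1 were highest on saline replicate 2, but the rest did not follow the median. Alas2 had 8.07 and 10.2 on the saline arrays and 9.96 to 11.5 on the nicotine arrays. Hbb-b2 had 12.04 to 12.38 and Hba-a1 4.09 to 4.65 over the 8 arrays. For Apoc3 the nearest list was intestine (0.29). For Apoa2, Apoh, Apom, Apoa1, Apob and Apoc2 it was liver (0.32 to 0.69). Apoa4 was about as far from liver (1.28) as from intestine (1.33). These are descriptions over 8 arrays that differed in their tissue mix, and the part of other tissues in the apolipoprotein changes was not tested.

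**Figure D3:**
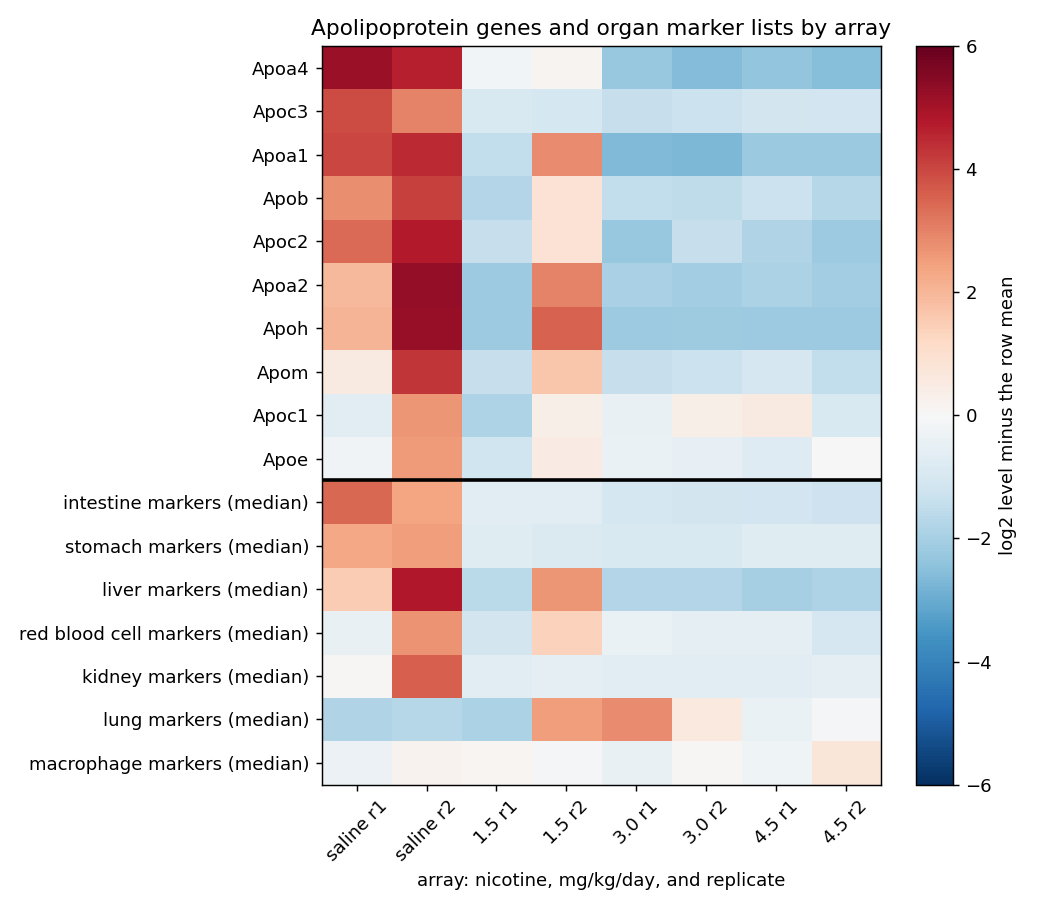
Log2 level of the 10 apolipoprotein genes and median log2 level of 7 marker lists on each array, each row minus its mean over the 8 arrays. Columns are arrays (saline, then nicotine 1.5, 3.0 and 4.5 mg/kg/day, r1 and r2 for the replicates), and red is above and blue below the row mean. Apoc3 has the pattern of the intestine row, Apoa2 and Apoh that of the liver row, with nicotine 1.5 r2 red, and Apoe and Apoc1 span the narrowest ranges of the 10.

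Among the apolipoprotein genes themselves, the most alike profiles were those of Apoa2 and Apoh, with a mean absolute difference of 0.18 log2 units. Apob and Apoc2 followed (0.45), then Apom and Apob (0.56) and Apoe and Apoc1 (0.56). Apoa4 and Apoc1 were the least alike (2.38). Of the neighbours on chromosome 9, Apoa1 and Apoa4 differed by 0.79 and Apoa1 and Apoc3 by 1.37. On chromosome 7, Apoc2 differed from Apoe by 1.54 and from Apoc1 by 1.77, so neighbouring genes were not always the most alike.

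Over all genes above the filter, the nearest profiles to each apolipoprotein gene were named by the same measure. Apoa4 was nearest to Fabp2 (0.29), Fabp1 (0.57) and Rbp2 (0.62), where the median over all genes was 2.55. Apoc3 was nearest to Mep1a (0.05), Lct (0.13) and Amn (0.16), with a median of 1.75 over all genes. Apoa1 was nearest to Cps1 (0.44), Fabp1 (0.49) and Ttr (0.51), Apob to Cfi (0.27), Fbp1 (0.32) and Hao2 (0.34), and Apoc2 to Hnf4a (0.40), Rbp2 (0.42) and Cps1 (0.44). Apoa2 was nearest to Apof (0.09), Apoh (0.18) and Hpx (0.18), Apoh to Fgg (0.14), Ambp (0.17) and Apoa2 (0.18), and Apom to 1300017J02Rik (0.15), Rdh7 (0.16) and Apoc4 (0.17). Apoe was nearest to Amy1 (0.14), Pla1a (0.16) and Cldn13 (0.17), and Apoc1 to Cpn2 (0.24), Hacl1 (0.33) and Slc4a1 (0.37), with medians over all genes of 0.82 and 0.99. Fabp2, Rbp2, Mep1a and Lct are on the intestine list, Cps1, Ttr, Hpx, Fgg and Ambp on the liver list, and Slc4a1 on the red blood cell list.

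The changes of the other 9 genes were then set against that of Apoe, by subtracting the Apoe level on the same array from every gene before the fit. In the mean of the doses, Apoa4 fell by 5.01 ± 1.0 more than Apoe (log2, SE, adjusted p = 0.00102, limma) and Apoa1 fell by 4.08 ± 1.0 more than Apoe (adjusted p = 0.0281). These were 2 of 9, where 0.0662% of all genes were called lower than Apoe. The differences of the others were -3.87 for Apoc2 (adjusted p = 0.0543), -3.29 for Apoh, -3.25 for Apoa2, -3.02 for Apoc3, -3.02 for Apob, -1.65 for Apom and 0.21 for Apoc1, and none passed. The subtraction gives every gene the spread of Apoe, and limma then gave all genes the same SE of 1.0. With each gene's own residual spread in its place, an alternative added after the data were seen, 0 of 9 passed (smallest adjusted p = 0.321). At an unadjusted p under 0.05 there were then 5 of the 9, and 552 of 13585 genes. Without the 2 arrays highest in liver markers, saline and the lowest dose were 1 array each. The differences from Apoe then ran from -6.40 for Apoa4 to 0.41 for Apoc1.

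Other genes of lipoprotein metabolism were read from 7 lists, counted here in the mean of the doses, where 5.4% of all genes were called lower and 4.75% higher. Of 14 apolipoprotein genes outside the 10 that were tested, 2 fell and 2 rose, with a median log2 change of -1.40. Clu, also called apolipoprotein J, fell by 2.32 ± 0.22 (SE, adjusted p = 0.00271, limma) and Apol7a fell by 2.60 ± 0.27 (adjusted p = 0.00354). Apoo and Apool, whose products sit in the inner mitochondrial membrane, rose by 1.14 ± 0.23 (adjusted p = 0.0294) and 0.93 ± 0.21 (adjusted p = 0.0408). Neither call was kept without saline replicate 2 or without the 2 arrays highest in liver markers. In the second case, with 1 array each in saline and the lowest dose, the median of the 14 was -0.74.

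Of 18 genes of lipoprotein assembly and secretion, 12 fell and 0 rose, with a median of -1.28. Mttp, the microsomal protein that loads lipid onto Apob, had log2 levels of 4.96 to 6.45 on the nicotine arrays, against 11.0 and 10.3 on the saline arrays, and fell by 5.07 ± 0.32 (SE, adjusted p = 0.000524, limma). The groups did not overlap, and nicotine 1.5 replicate 2 was the highest nicotine array. Fabp2, the intestinal fatty acid binding protein, fell by 6.50 ± 0.30 (adjusted p = 0.000135), Tm6sf2 fell by 2.83 ± 0.23 (adjusted p = 0.00136) and Cideb fell by 3.61 ± 0.32 (adjusted p = 0.00202). Tm6sf2 and Cideb both act in the lipidation of very-low-density lipoprotein. With 1 saline array left, the median of the 18 was -1.30 without saline replicate 2 and -1.27 without both arrays highest in liver markers. Intestine and liver markers moved with this list as they did with the apolipoprotein genes, and Fabp2 and Mogat2 are on both this list and the intestine list.

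Of 23 tested regulators of apolipoprotein genes, 8 fell and 0 rose, with a median of -0.86. Hnf4a, the nuclear receptor that drives many of them, had log2 levels of 9.46 and 9.64 on the saline arrays, 5.21 and 7.33 at 1.5 mg/kg/day and 4.19 to 4.34 at the higher doses, and fell by 4.62 ± 0.49 (SE, adjusted p = 0.0039, limma). Its array order was that of Apoa1, Apob and Apoc2. Nr1h4, the bile acid receptor, fell by 2.87 ± 0.29 (adjusted p = 0.00314), Creb3l3 fell by 2.16 ± 0.24 (adjusted p = 0.00481) and Nr5a2 fell by 1.89 ± 0.20 (adjusted p = 0.0042). All 4 were also called lower without either saline array.

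Receptors and plasma enzymes did not move in one direction. Of 15 receptor and uptake genes, 2 fell and 2 rose, with a median of 0.16. Cubn and Amn, the 2 parts of the cubam receptor, which takes up vitamin B12 in intestine and Apoa1 in kidney, both fell, with changes of -4.48 ± 0.32 (SE, adjusted p = 0.000936, limma) and -4.23 ± 0.39 (adjusted p = 0.00239). Vldlr, a receptor that binds Apoe-rich particles, rose by 1.40 ± 0.33 (adjusted p = 0.0447) and Sort1 by 0.98 ± 0.20 (adjusted p = 0.0324). Of 11 genes of plasma processing, 0 fell and 1 rose, with a median of 0.34. It was Gpihbp1, the endothelial anchor of lipoprotein lipase, with 1.64 ± 0.27 (adjusted p = 0.017). Adipocyte and lung markers were also higher on most nicotine arrays, and their part in the changes of Vldlr, Sort1 and Gpihbp1 was not tested. Without saline replicate 2, Cubn and Amn kept their calls and Vldlr, Sort1 and Gpihbp1 did not.

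Of 9 genes of cholesterol efflux and sterol transport, 1 fell, the lysosomal lipase Lipa (by 1.34 ± 0.32, SE, adjusted p = 0.0448, limma), and the median was -0.02. Of 15 cholesterol synthesis genes, 6 fell and 0 rose, with a median of -1.03. Among them Sc5d fell by 2.02 ± 0.20 (adjusted p = 0.00284), Cyp51 fell by 1.73 ± 0.21 (adjusted p = 0.00627), Idi1 fell by 1.69 ± 0.31 (adjusted p = 0.0232) and Fdps fell by 1.16 ± 0.21 (adjusted p = 0.0216). By dose the list had 2 lower calls at 1.5 mg/kg/day, 2 at 3.0 mg/kg/day and 7 at 4.5 mg/kg/day. Of all genes, 1.75%, 2.38% and 3.97% were called lower at these doses, low to high. In the mean of the doses the median of the list was -0.84 without saline replicate 2 and -1.22 without saline replicate 1. It was -0.75 without the 2 arrays highest in liver markers. Fewer of its genes were called in each of these fits, which hold 1 saline array. The call of Lipa was lost without saline replicate 2.

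**Figure D4:**
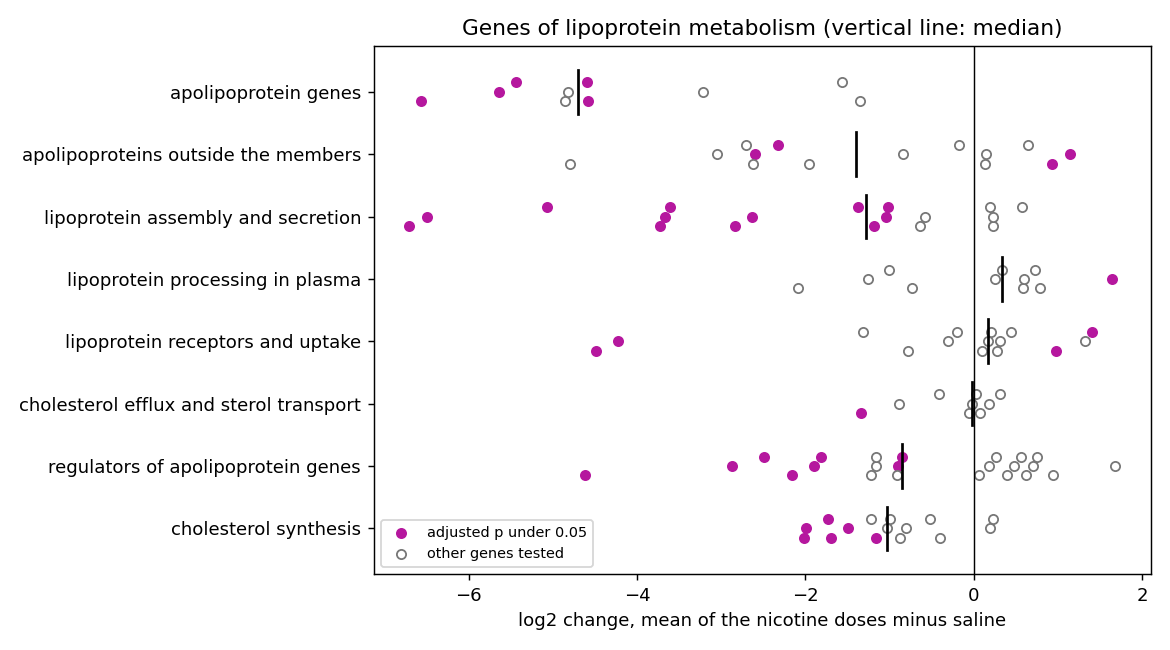
Log2 change in the mean of the nicotine doses (nicotine minus saline) for the 10 apolipoprotein genes and for the tested genes of 7 lists of lipoprotein metabolism. Each point is a gene, filled points have an adjusted p under 0.05, and the vertical bar in each row is the median of the row. Medians lie at -4.70 for the 10 apolipoprotein genes, -1.40 for the other apolipoproteins, -1.28 for assembly and secretion and -1.03 for cholesterol synthesis, and at 0.34 for plasma processing.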

How the data were processed

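RNA of 8 samples was hybridised to 1-colour Affymetrix arrays, 2 per group. The deposited values are intensities on a linear scale, 1 per probe set, made by the authors. The steps of summary, background correction and scaling are not given in the sources used, and no detection calls were used. Array medians lay between 20.7 and 25.4, and no column was left unused. Gene names came from the platform annotation: 34945 probe sets named 1 gene, 932 several and 9160 none, 64 were controls, and 34741 matched the RefSeq table by Entrez ID. Groups came from the sample titles.

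Values were taken as log2(intensity + 16), which understates the changes of dim genes, and quantile-normalized, since array medians differed by 0.17 on that scale. Intensities in the text are as deposited, and levels and changes are normalized. A gene with several probe sets was read by the brightest on average. A filter at the 40th percentile of mean level kept 13586 of 18193 genes. One model of the 4 group means was fitted with limma 3.58.1 in R 4.3.3 (lmFit and eBayes, 4 residual and 6.85 total degrees of freedom, two-sided, Benjamini-Hochberg over all genes tested) and called at an adjusted p under 0.05. The fit was tested on simulated data.

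Named beside the 10 genes were the up to 4 genes with the smallest p in the mean of the doses in each list, the 3 nearest profiles of each gene, and single marker genes chosen after their values were seen. The 10 genes, the lists and the pair of arrays highest in liver markers were chosen with earlier results of these data known, and the Apoe comparison used the same 2 saline arrays as all others. Alternatives covered the added constant, the filter, the normalization, the probe set, array weights, the groups fitted, the replicate block and the arrays kept. Where leaving out an array left 1 in a group, that array was assumed to vary like the other groups. The list medians and calls with arrays left out were added after the data were seen.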

Additional observations from a re-analysis of the deposited data

How the results depend on the processing

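All 5 genes called in the mean of the doses kept their calls under every added constant, filter, normalization, probe set rule and array weight tried, and the counts at single doses stayed within 1.5 times under these settings. Leaving out each array in turn gave 2 to 5 genes called at 1.5 mg/kg/day, 2 to 7 at 3.0 mg/kg/day, 2 to 7 at 4.5 mg/kg/day, 3 to 7 in the mean of the doses, 0 to 1 among the doses (Apoa1 without nicotine 1.5 replicate 1) and 1 to 7 different from Apoe. The 7 came without saline replicate 1, where 93.5% of all genes were called different from Apoe, so it says nothing particular of these genes. Without any single array of the 2 higher doses, or without saline replicate 2, fewer apolipoprotein genes were called at those doses than in the main fit. Fewer of all genes were called there too. Without either array of 1.5 mg/kg/day, or without saline replicate 1, more of both were called at those doses. The counts at the higher doses thus moved with the calls over all genes, and the cause was not tested. With the 2 arrays highest in liver markers left out, 8 genes were called at each dose and in the mean, 1 among the doses (Apoa4) and 7 as different from Apoe. In that fit saline and the lowest dose were 1 array each. At each dose, among the doses and against Apoe, more of all genes were called than in the main fit. In the mean fewer of all genes were called. At the 2 higher doses and in the mean, the genes added to the main calls were Apoa2, Apoh and Apom. Their p-values in that fit carry no weight, as stated above. With only the 2 groups compared, 1 gene was called at 1.5 mg/kg/day, as was 0.11% of all genes, against 2.48% in the main fit. The count different from Apoe was 6 with an added constant of 1 (0.903% of all genes) and 1 with 64 (0.0954%). It was 0 with array weights and 0 with each gene's own spread (0% of all genes in both). In the main fit 0.191% of all genes were called different from Apoe. The cause was not tested. Changes that turned in sign were those of Apoc1. Without both arrays highest in liver markers its log2 change was 0.57 at 3.0 mg/kg/day and 0.42 at 4.5 mg/kg/day. Leaving out single arrays, it ran from -2.72 to 0.57 at 3.0 mg/kg/day, -2.87 to 0.42 at 4.5 mg/kg/day and -3.00 to 0.29 in the mean of the doses, from without saline replicate 1 to without saline replicate 2. As a difference from Apoe it ran from -0.16 without nicotine 4.5 replicate 1 (-0.07 without saline replicate 1) to 0.58 without nicotine 4.5 replicate 2. Deviations of same-numbered replicates correlated at -0.22 to 0.33, over 0.1 in 1 of 6 pairs of groups (saline with 1.5 mg/kg/day) and below -0.1 in 4. The numbers were therefore not used as pairs in the main fit. With 2 arrays per group, these values cannot show whether groups shared litters or batches. With the replicate number as a block, 7 genes differed from Apoe, as did 27.9% of all genes, and the other counts of apolipoprotein genes did not change. Over all genes, the calls in the mean of the doses were 1380, against 849 with the replicate block, 618 with array weights and 349 without nicotine 3.0 replicate 1.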
